A study of Mus musculus with 21 samples.

Results

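The 39 Hox genes of the mouse were followed in 3 kinds of cultured fibroblasts, with Prrx1 unaltered, mutated or edited. They were taken as every gene whose symbol is Hox followed by the cluster letter A, B, C or D and a number. They were 39 of the 24532 genes listed for embryonic fibroblasts, and of the 24447 genes listed for all fibroblast types. Hox genes encode homeodomain transcription factors that give cells their place along the body axis and the limbs. They lie in 4 clusters, in which genes of the same number (paralogs) are related by descent, and genes of low number are expressed towards the head while genes of high number are expressed towards the tail and the tips of the limbs. Fibroblasts keep much of the Hox pattern of the site they came from when they are cultured. Here paralogs 1 to 3 are called anterior, 4 to 8 central and 9 to 13 posterior.

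Bulk RNA-seq covered 21 cultures in 7 groups of 3. Mouse embryonic fibroblasts (MEF) of strain C57BL/6 came from embryos of embryonic days 10 to 13 that were either wild type (WT) or Prrx1 mutant. The mutant is the 129S-Prrx1tm1Jfm/Mmmh line, labelled knock-in, which carries LacZ inside Prrx1 and was crossed to C57BL6. A further group, sgPrrx1 MEF, was edited at Prrx1 with CRISPR/Cas9 and a single guide RNA. Wound-healing fibroblasts (C57BL/6) came from the dorsal skin at day 10 after wounding, and MMTV-CAF are cancer-associated fibroblasts of MMTV-PyMT mammary tumours in FVB/NJ mice. Each of these was studied as WT and as sgPrrx1, and the labels give a non-targeting guide as the WT control. All cultures had been immortalized with human papillomavirus genes, and the ages of the adult mice are not given in the labels. The labels do not say whether the 3 replicates of a group were separate cultures, clones or animals, so the p-values measure the spread between these samples only, which may be technical.

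Total counts ranged from 69588655 to 134790440 per culture. Prrx1 itself fell from 181 ± 13.1 CPM (SD, n = 3, counts normalized to the library size) in WT MEF to 22.2 ± 3.41 in the mutant and to 120 ± 23.3 in sgPrrx1 MEF, from 147 ± 4.69 to 64.9 ± 0.57 in wound-healing fibroblasts, and from 632 ± 4.6 to 306 ± 4.37 in MMTV-CAF. Of the fibroblast markers Col1a1, Col1a2, Col3a1 and Vim were above 100 CPM on average in every group. The summed level of the 9 fibroblast markers was lower in each group with Prrx1 mutated or edited. It went from 12200-12470 CPM in WT MEF to 5595-6848 in mutant MEF and 9589-11270 in sgPrrx1 MEF. The sum went from 8230-8379 to 3238-3255 CPM in wound-healing fibroblasts and from 31720-32320 to 15760-15960 in MMTV-CAF. Some of the 9 were near 0. Dcn went from 48.8 CPM in WT to 0.142 in mutant MEF. Thy1 went from 49.8 to 2.88 in wound-healing fibroblasts and from 57.3 to 0.641 in MMTV-CAF. Lum was at most at 0.158 CPM on average in every group but WT MMTV-CAF (1.27). Other single markers went against the fall of the sum. Vim was at 5075 ± 285 CPM in WT and 6504 ± 771 in sgPrrx1 MEF, and in MMTV-CAF Dcn was at 32.4 ± 0.78 in WT and 588 ± 8.74 in sgPrrx1 and Pdgfra at 939 ± 16.8 and 1835 ± 6.25. Epithelial, immune and muscle markers each summed to at most 13.6 CPM in any culture, with Epcam, Krt5, Ptprc and Adgre1 below 0.2 CPM on average in every group. Other members were higher and some differed between compared groups. Krt18 was at 12.8 CPM in WT and 9.19 in sgPrrx1 wound-healing fibroblasts, and Des at 5.51 and 0.597. Krt14 was at 5.88 CPM in WT, 4.12 in sgPrrx1 and 0 in mutant MEF. Cdh1 was at 0.503 CPM in WT and 0.0196 in mutant MEF. Krt18 and Krt8 went the other way, from 0 and 0.0384 CPM in WT to 0.595 and 0.433 in mutant MEF. Cd68 was between 0.698 and 2.44 CPM on average in all groups. Endothelial markers summed to 140 CPM or more in wound-healing fibroblasts only, through Kdr alone (290 CPM in WT and 142 in sgPrrx1). Cdh5 and Pecam1 were at or below 0.1 CPM there. In MEF Kdr was at 3.64 CPM in WT, 1.49 in the mutant and 0.223 in sgPrrx1. Cdh5 was at 1.165, 0.0588 and 1.575 CPM in the same order. The groups also differed in Y-linked genes chosen after their values were seen. Kdm5d was at 0-0.0354 CPM in mutant MEF and 10.6-11.7 in WT MEF, and Ddx3y at 1.96-2.18 in sgPrrx1 and 20-22.3 in WT wound-healing fibroblasts. Other Y-linked genes did not fall in this way. In mutant MEF Uty (7.64-9.68 CPM, 5.01-6.93 in WT), Ddx3y (18.8-23.8, 14.6-17.4) and Eif2s3y (10.78-13.65, 1.93-2.13) were higher. In sgPrrx1 wound-healing fibroblasts Kdm5d (12.7-13.2 CPM, 10.1-10.7 in WT), Uty (10.4-11.1, 8.77-10.3) and Eif2s3y (22.7-24.1, 24.2-25.1) were near WT. Whether the mutant MEF and the sgPrrx1 wound-healing cultures share the source of their WT is in doubt and was not tested. The part of these differences in the Hox results was not tested, and fewer cells of a kind cannot be told apart from less RNA per cell.

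In GRCm38.p6 of RefSeq the Hoxa cluster lies on chromosome 6 (105.5 kb, 11 genes), the Hoxb cluster at chr11:96194316-96368254 (173.9 kb, 10 genes), the Hoxc cluster chr15:102921131-103036856 (115.7 kb, 9 genes) and the Hoxd cluster chr2:74668225-74765142 (96.9 kb, 9 genes). The gene spans of 4 Hoxa, 2 Hoxb and 4 Hoxd genes overlap that of another Hox gene, so that the counting could split their reads, and the library kit does not keep the strand. Among the genes that rose in mutant MEF, the largest fitted changes were those of 6 posterior genes of clusters A and D. These were Hoxa11, Hoxa13, Hoxd10, Hoxd11, Hoxd12 and Hoxd13, which are known for patterning the middle and distal limb. They were picked as a set after their values were seen and are called the 6 distal genes below. Promoter entries were found for 22 of the 39 Hox genes, and the 200 bases before the transcription start of these 6 are shown because their transcripts appeared together in mutant MEF. Letters are in lower case, with TAATTA, the core bound by many homeodomain proteins, and TATAAA, the TATA box core, in capitals wherever they occur on either strand.
Hoxa11, chr6:52245811-52246010, minus strand of GRCm38.p6: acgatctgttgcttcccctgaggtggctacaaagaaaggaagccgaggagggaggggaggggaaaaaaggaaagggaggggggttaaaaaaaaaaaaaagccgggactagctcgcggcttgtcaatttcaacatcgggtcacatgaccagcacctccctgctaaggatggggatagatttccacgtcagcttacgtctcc
Hoxa13, chr6:52260881-52261080, minus strand of GRCm38.p6: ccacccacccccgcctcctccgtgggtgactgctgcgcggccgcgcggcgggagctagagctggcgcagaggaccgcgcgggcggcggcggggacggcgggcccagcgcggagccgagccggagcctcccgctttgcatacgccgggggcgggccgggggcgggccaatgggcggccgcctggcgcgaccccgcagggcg
Hoxd10, chr2:74691691-74691890, plus strand of GRCm38.p6: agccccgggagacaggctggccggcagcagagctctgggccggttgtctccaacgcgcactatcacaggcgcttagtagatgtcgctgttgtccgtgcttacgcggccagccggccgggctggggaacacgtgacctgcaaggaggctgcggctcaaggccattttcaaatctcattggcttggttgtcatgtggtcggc
Hoxd11, chr2:74679358-74679557, plus strand of GRCm38.p6: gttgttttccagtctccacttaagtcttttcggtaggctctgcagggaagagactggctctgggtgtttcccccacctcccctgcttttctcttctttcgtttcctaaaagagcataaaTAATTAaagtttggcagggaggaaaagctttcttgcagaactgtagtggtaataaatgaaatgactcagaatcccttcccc
Hoxd11, chr2:74682123-74682322, plus strand of GRCm38.p6: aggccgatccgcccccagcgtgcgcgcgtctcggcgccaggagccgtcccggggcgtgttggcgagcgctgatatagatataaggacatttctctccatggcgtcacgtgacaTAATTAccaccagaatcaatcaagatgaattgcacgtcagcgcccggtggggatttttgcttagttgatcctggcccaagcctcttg
Hoxd12, chr2:74674813-74675012, plus strand of GRCm38.p6: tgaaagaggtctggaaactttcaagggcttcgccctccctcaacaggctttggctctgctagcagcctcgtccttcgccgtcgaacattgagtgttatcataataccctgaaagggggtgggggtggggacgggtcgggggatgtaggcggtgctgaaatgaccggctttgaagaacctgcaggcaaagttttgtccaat
Hoxd13, chr2:74668025-74668224, plus strand of GRCm38.p6: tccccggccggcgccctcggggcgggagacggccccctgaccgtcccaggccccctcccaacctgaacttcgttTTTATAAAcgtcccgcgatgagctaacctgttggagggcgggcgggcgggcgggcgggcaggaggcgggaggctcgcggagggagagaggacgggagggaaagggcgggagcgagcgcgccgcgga
The sequences differ in base composition. GC content was 82.5% in Hoxa13 with 33 CpG dinucleotides and 44.5% with 2 CpG in the first Hoxd11 start, against a median of 58.2% over the 24 Hox promoter entries and 53% over all 32851 promoters of the same length. Both Hoxd11 starts held TAATTA, which reads the same on both strands, and the other 5 entries did not. TAATTA was in 3.73% of all promoters and in 8.33% of the Hox entries. Hoxd13 held TATAAA on both strands in overlapping positions, a motif found in 9.96% of all promoters and 16.7% of the Hox entries.

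Each WT fibroblast type expressed a broad set of Hox genes from all 4 clusters. With a gene counted as detected at 1 CPM or more in all 3 WT cultures, 21 of the 39 genes were detected in MEF and 26 each in wound-healing fibroblasts and MMTV-CAF. Paralogs 2 to 9 of cluster B and 4 to 9 of cluster C were detected in every type. The Hoxa genes detected in WT MEF included Hoxa3 to Hoxa7, while Hoxa9 and Hoxa10 were detected in both adult types and not in MEF. Hoxa4 was below the limit in wound-healing fibroblasts. Hoxc10 and Hoxc13 were likewise detected in both adult types and not in MEF. Of cluster D only Hoxd8 and Hoxd9 were detected in all types, and Hoxd4 in wound-healing fibroblasts as well. With a limit of 0.5 CPM these numbers were 26, 28 and 27, and with 2 CPM they were 16, 24 and 22. Hoxb1 had 2 counts in 1 of the 21 cultures and was otherwise at 0, and Hoxd1 had at most 18 counts in any culture.

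**Figure D1:**
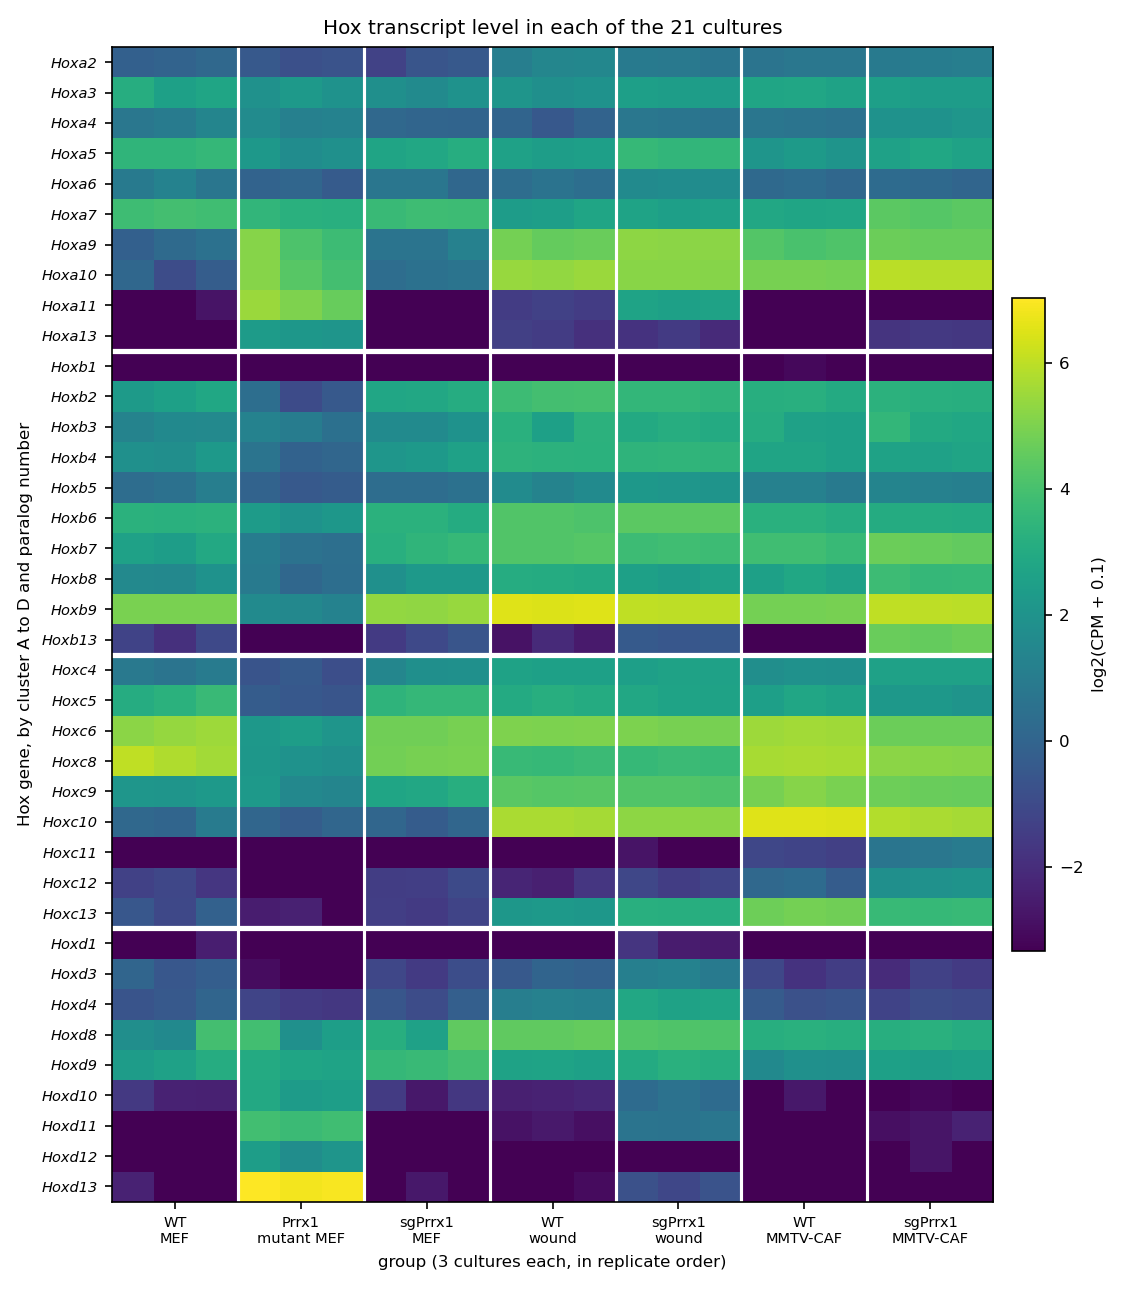
Level of the Hox genes reported here in each of the 21 cultures, as log2(CPM + 0.1) on the colour scale. Rows are ordered by cluster and paralog number and columns by group, and Hoxa9 to Hoxa13 and Hoxd10 to Hoxd13 are low or at 0 in WT MEF and brighter in the 3 mutant MEF cultures.

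The gene with the highest level per kilobase of exon (RPKM) differed among the WT types. In WT MEF it was Hoxc8, a central gene of the thoracic level, at 24.6 ± 3.65 RPKM (SD, n = 3), followed by Hoxc6 at 16.8, Hoxb9 at 11.9, Hoxa5 at 5.95 and Hoxa7 at 5.03, and no neighbours in this order overlapped between cultures. In WT wound-healing fibroblasts it was Hoxb9 at 35.5 ± 0.85 RPKM, followed by Hoxc10 at 26.9, Hoxc6 at 13 and Hoxa10 at 11.2. Hoxb6 at 8.73 and Hoxd8 at 8.42, next in that order, overlapped. In WT MMTV-CAF it was Hoxc10 at 47.5 ± 0.29 RPKM, followed by Hoxc8 at 22.3, Hoxc6 at 18.8 and Hoxc9 at 13.2, whereas Hoxb9 at 11.3 and Hoxc13 at 11.2 overlapped. Posterior genes made up 19.4 ± 0.24% of the summed Hox CPM in WT MEF, 56.5 ± 0.63% in WT wound-healing fibroblasts and 54.1 ± 0.61% in WT MMTV-CAF. Cluster C held the largest share of the 4 clusters in WT MEF (49.5 ± 2.87%) and in WT MMTV-CAF (60.7 ± 0.83%), and cluster B the largest in WT wound-healing fibroblasts (40 ± 0.26%).

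**Figure D2:**
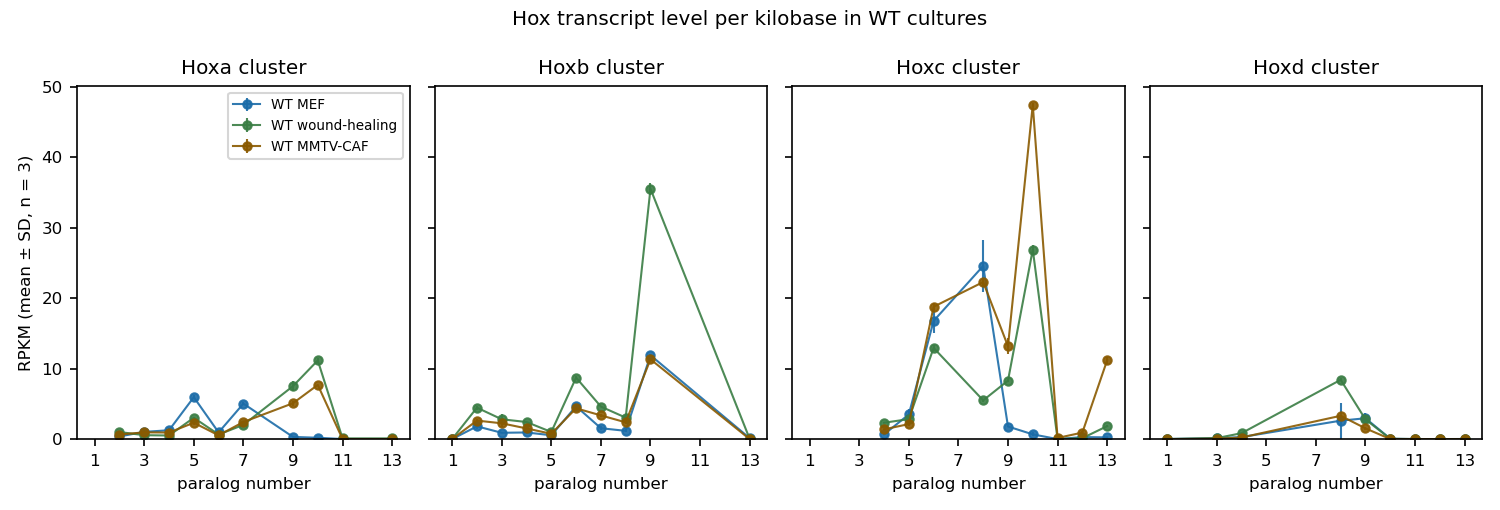
RPKM (CPM per kilobase of exon) of each Hox gene reported here by paralog number, with 1 panel per cluster. Points are means of the 3 WT cultures of MEF, wound-healing fibroblasts and MMTV-CAF with bars for the SD, lines only join the points of a type, and the adult types stand above MEF at paralogs 9 and 10 of cluster A and 10 and 13 of cluster C.

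The WT cultures were compared in 1 edgeR model, with a gene called at an adjusted p under 0.05 and a change of at least 2-fold counted separately. Between wound-healing fibroblasts and MEF 38.9% of all tested genes changed at least 2-fold, and 22 of the 33 Hox genes tested did. The share was 34.1% and 16 of 33 between MMTV-CAF and MEF, and 37.4% and 13 of 33 between MMTV-CAF and wound-healing fibroblasts. Hoxa10 and Hoxc10, posterior genes known from the lumbar region and hindlimb, were among those that differed most. WT MEF had 1, 0.432 and 0.724 CPM of it, WT wound-healing fibroblasts 43.4, 41.1 and 44.1, and WT MMTV-CAF 29.6, 29.6 and 29.4. The MEF values lay below all others, with a log2 difference of 5.93 (SE 0.19, edgeR adjusted p = 7.83e-09) for wound-healing fibroblasts and 5.31 (SE 0.19, adjusted p = 1.49e-08) for MMTV-CAF. Hoxc10 was at 1.01, 0.95 and 1.89 CPM in WT MEF, at 51.8, 52.4 and 49.9 in wound-healing fibroblasts and at 90.8, 91 and 90 in MMTV-CAF, and the 3 groups did not overlap. Other posterior genes higher in both adult types were Hoxa9 (4.63 and 3.99 log2 above MEF in wound-healing fibroblasts and MMTV-CAF), Hoxc9 (2.25 and 2.84) and Hoxc13 (2.92 and 5.45). Central genes of cluster A went the other way, with Hoxa5 lower by 0.94 and 1.40 and Hoxa7 by 1.28 and 1.10 on the log2 scale. Hoxc8 separated the adult types, at 12.5, 12.3 and 13.1 CPM in wound-healing fibroblasts and 50.9, 52.3 and 50.6 in MMTV-CAF (log2 difference 1.94, SE 0.10, adjusted p = 1.13e-07), and Hoxb9 was lower in MMTV-CAF by 1.73 (SE 0.03, adjusted p = 4.69e-10). The X-inactivation RNA Xist was at 383-451 CPM in WT MMTV-CAF, where Ddx3y, Kdm5d and Uty were at 0, and at most at 0.0695 CPM in the WT cultures of the other types, which expressed these Y-linked genes. Fibroblast type, age and site of origin cannot be told apart in these contrasts, nor can mouse strain and sex in those with MMTV-CAF.

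In Prrx1 mutant MEF Hox genes of all 4 clusters changed, many of them by large factors. Of the 36 Hox genes tested, 21 fell, 9 rose and 6 did not pass the test, so that 30 were called, against 59.9% of all genes tested in the same comparison. At least 2-fold, 18 of them were lower, against 14.5% of all genes, and 9 higher, against 9.64%. The 9 that rose included 8 of the 9 posterior genes of clusters A and D, and every tested Hoxb and Hoxc gene had a negative fitted change. A gene near 0 in WT passed the filter on low counts through its high mutant values and had to differ, so these counts describe the genes and support nothing further. The median log2 change over the tested Hox genes was -0.95, against 0.01 over all genes.

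Hoxd13, the last gene of cluster D and a gene of the digits and the urogenital tract, was at 131, 115 and 121 CPM in the mutant cultures, at 0.102, 0 and 0 in WT MEF and at 0, 0.0591 and 0 in sgPrrx1 MEF. The mutant values stood far above all others. The fitted log2 change was 11.84 (SE 0.50), a value that depends on the prior count because WT MEF held 7 counts in all. Hoxd13 passed the filter through its mutant values and could be called only higher, so no p-value is given. Hoxd13 was the highest Hox gene of mutant MEF per kilobase, at 49.2 ± 3.22 RPKM (SD, n = 3). Next was Hoxa11 at 12.6 ± 3.71, which overlapped Hoxa9 at 6.31 ± 3.33. Hoxd13 alone held 41.4 ± 5.11% of the summed Hox CPM there.

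Hoxa11, which patterns the middle limb segment and the uterus, was at 44.5, 32.5 and 24.6 CPM in mutant MEF, at 0, 0 and 0.046 in WT MEF and at 0 in all 3 sgPrrx1 MEF cultures. Its fitted log2 change was 10.76 (SE 0.55), again set in part by the prior count, since WT MEF held 4 counts. Hoxa11 too could be called only higher. Without strand its reads cannot be told apart from those of its antisense RNA. Hoxd11, a partner of Hoxa11 in the forearm, was at 14.9, 13.2 and 14.3 CPM in mutant MEF and at 0 in every WT and sgPrrx1 MEF culture, which makes it at least 349-fold higher than WT, taking 3 counts per culture as the floor. Hoxa13 (5.06, 4.32 and 4.06 CPM) and Hoxd12 (5.3, 3.32 and 4.17 CPM) were likewise at 0 in every WT and sgPrrx1 MEF culture. They were at least 111-fold and at least 105-fold higher than WT, respectively.

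Hoxd10 was at 7.46, 4.99 and 5.52 CPM in mutant MEF and at 0.232, 0.101 and 0.092 in WT MEF, without overlap. The fitted log2 change was 5.39 (SE 0.37), and Hoxd10 also passed the filter through its mutant values. Hoxa9 and Hoxa10, genes of the lower trunk and limbs that are also active in blood progenitors, varied more between mutant cultures. Hoxa10 was at 35.1, 20.4 and 15 CPM against 1, 0.432 and 0.724 (log2 change 5.01, SE 0.44, edgeR adjusted p = 0.000107). Hoxa9 was at 35.3, 17.4 and 13.5 CPM against 0.798, 1.09 and 1.33 (4.33, SE 0.43, adjusted p = 0.000194). Mutant replicate 1 was the highest of the 3 for both. Hoxd9 was the posterior gene of these clusters that did not pass the test, at 7.95, 6.68 and 6.26 CPM against 5.13, 5.92 and 8.30 (0.09, SE 0.20, adjusted p = 0.718).

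**Figure D3:**
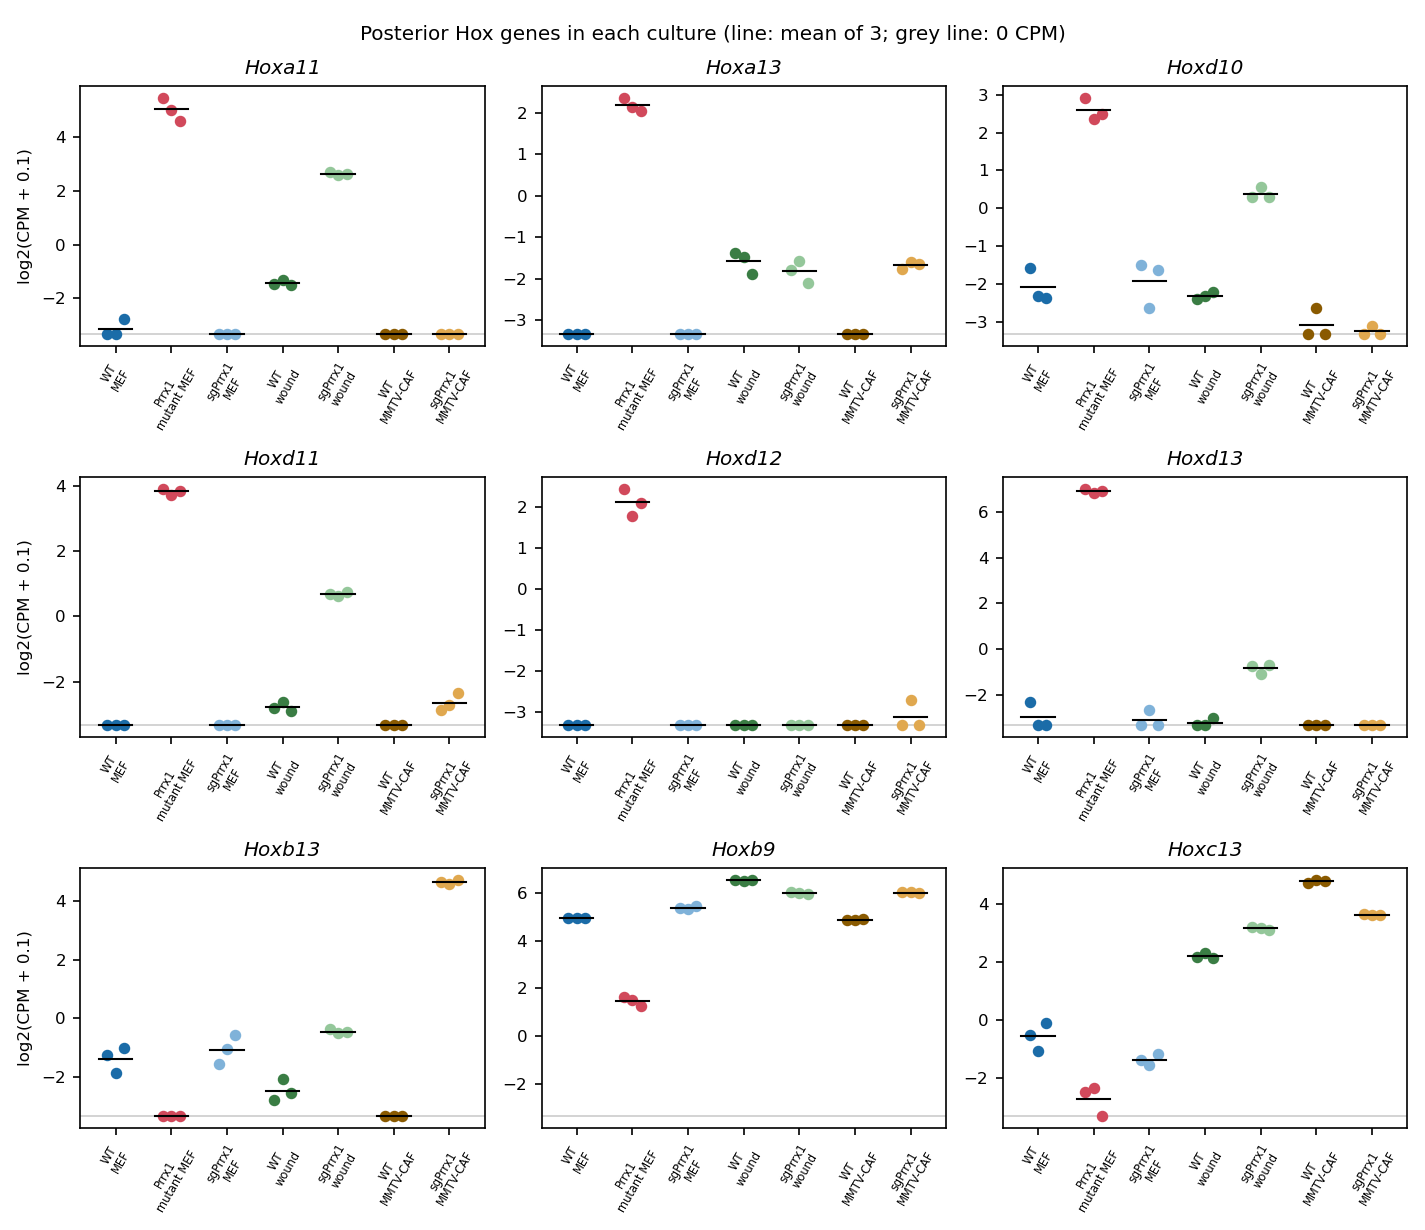
Level of 9 posterior Hox genes, as log2(CPM + 0.1), in single cultures (points) of the 7 groups, with black lines for the mean of the plotted values and a grey line at 0 CPM. The 3 mutant MEF cultures hold Hoxd13 at 115 to 131 CPM, where every other culture is below 1 CPM.

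Clusters B and C fell in the same mutant cultures. Of the 9 Hoxb genes tested 8 fell, with a median log2 change of -1.83, and of the 8 Hoxc genes tested 6 fell, with a median of -3.26 (-3.04 with Hoxc12 at its bound). All 9 central genes of the B and C clusters were lower. With 59.9% of all genes called in either direction, these counts by cluster are descriptive only. Hoxb9, a gene of the thorax, was at 3.02, 2.74 and 2.32 CPM in mutant MEF against 30.5, 30.4 and 31 in WT, without overlap (-3.53, SE 0.13, edgeR adjusted p = 2.83e-06). Hoxc8, the highest Hox gene of WT MEF per kilobase, was at 4.39, 3.80 and 3.49 CPM against 65, 56.3 and 48.3 (-3.88, SE 0.16, adjusted p = 4.79e-06). Hoxc5 showed the largest fitted fall among genes measured above 0.5 CPM in every culture, at 0.697, 0.614 and 0.572 against 8.34, 9.62 and 12.7 CPM (-4.04, SE 0.21, adjusted p = 1.01e-05).

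Hoxc6 fell by 3.20 on the log2 scale (SE 0.13, adjusted p = 4.67e-06) and Hoxb2 fell by 2.98 (SE 0.39, adjusted p = 0.000694). A pair of posterior members of these clusters that were already low in WT MEF were at 0 in all mutant cultures. Hoxb13, from 0.319, 0.173 and 0.391 CPM in WT, was at least 7.47-fold lower, and Hoxc12, from 0.305, 0.36 and 0.207 CPM, at least 7.38-fold lower. Hoxd3, an anterior gene, had 2 counts in the 3 mutant cultures together and 172 in WT, a ratio of 87.9 (95% exact counting interval 24.0 to 732). Hoxb3, Hoxc9, Hoxc10, Hoxa4 and Hoxd8 did not pass the test, although Hoxb3 was called lower without replicate 1 (adjusted p = 0.0403) and in the model of all 9 MEF cultures (0.0433), and Hoxc9 without replicate 1 (0.0187). Hoxd8 varied most among cultures, at 14.6, 3.56 and 5.53 CPM in the mutant and 3.38, 2.92 and 15.2 in WT MEF, and the groups overlapped. The calls of Hoxa2 and Hoxb5 were lost without replicate 2 (adjusted p = 0.213 and 0.086) and without replicate 3 (0.153 and 0.0705), as was that of Hoxd4 (0.071 and 0.0577), and that of Hoxa7 was lost without replicate 2 (0.0949).

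By position, 4 anterior genes of mutant MEF were lower. The central genes split into 13 lower and 0 higher of 15 tested, and the posterior genes into 4 lower and 8 higher of 15 tested. These counts are descriptive only too, with 59.9% of all genes called in either direction. The paralog groups 4 to 8 had a negative median log2 change each, from -1.60 to -1.20, and groups 10 to 13 a positive one, while group 9 stood at -0.16. The medians of groups 12 and 13 average opposite changes, since 1 gene was lower and 1 higher in group 12, and 2 were lower and 2 higher in group 13. The share of posterior genes in the summed Hox CPM was 81.6 ± 0.40% in the mutant against 19.4 ± 0.24% in WT MEF. Cluster D went from 6.34 ± 3.21 to 54.5 ± 5.01% and cluster A from 17.1 ± 0.67 to 36 ± 5.11%, while cluster C went from 49.5 ± 2.87 to 4.69 ± 0.39% and cluster B from 27 ± 0.47 to 4.79 ± 0.11%. The 6 distal genes together held 62.3 ± 4.58% in the mutant and 0.081 ± 0.055% in WT MEF. They were picked by their rise in these same cultures, so this share only describes them. The summed Hox level itself was 300 ± 55.2 CPM in the mutant and 237 ± 14.1 in WT MEF. Replicates of the 3 MEF groups varied more than those of the other types, with a median coefficient of variation over Hox genes of 12.5 to 18.5% against 4.8 to 6.48%.

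**Figure D4:**
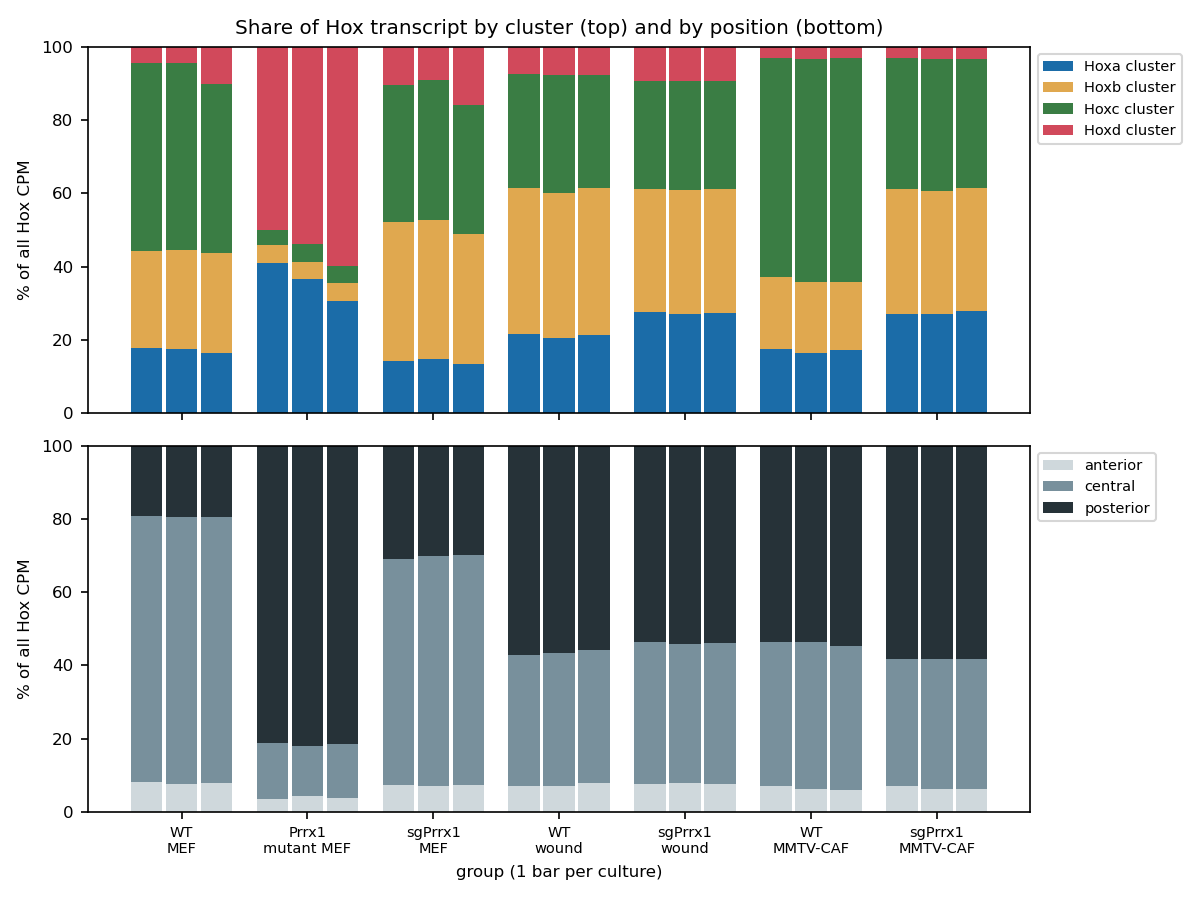
Share of the summed Hox CPM held by each cluster and by anterior, central and posterior genes, in percent, with 1 bar for each of the 3 cultures of the 7 groups. Cluster D and the posterior genes take 54.5% and 81.6% on average in mutant MEF, where WT MEF have 6.34% and 19.4%.

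In sgPrrx1 MEF, which shared the 3 WT MEF cultures with the mutant comparison and kept more Prrx1 transcript, Hox changes were fewer and smaller. Of the 31 genes tested 6 fell, 5 rose and 20 did not pass the test, so that 11 were called, against 43.1% of all genes. At least 2-fold, Hoxa3, Hoxa4 and Hoxd3 were lower (8.97% of all genes) and Hoxd9 higher (1.58% of all genes). The median log2 change was 0.12, against 0.00 over all genes. Hoxc8 was at 28.5, 30.3 and 30.9 CPM, below the 65, 56.3 and 48.3 CPM of WT MEF, with a log2 change of -0.93 (SE 0.11, edgeR adjusted p = 0.000983). Hoxa3, a gene of the pharyngeal region, was at 3.43, 2.97 and 3.77 CPM against 8.57, 5.73 and 6.75 (-1.06, SE 0.18, adjusted p = 0.00353). Hoxd9 was at 11.8, 12.8 and 15.3 CPM against 5.13, 5.92 and 8.30 (1.03, SE 0.19, adjusted p = 0.00573), and the groups did not overlap in any of the 3 genes. The other calls were Hoxa5 (-0.59) and Hoxc6 (-0.57) among lower genes, and Hoxb7 (0.75), Hoxb9 (0.42), Hoxc4 (0.89) and Hoxc9 (0.81) among higher genes. Hoxb9 went up where the mutant went down, at 41, 39.9 and 43.3 CPM against 30.5, 30.4 and 31 in WT MEF. Without replicate 2 only Hoxa3 and Hoxc8 of the 11 remained called, and Hoxd3 was also lost without replicate 1 (adjusted p = 0.121). Hoxd8 was called without replicate 3 (1.22, adjusted p = 0.0102). The 6 distal genes had between 0 and 0.251 CPM in every sgPrrx1 MEF culture.

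The sgPrrx1 and mutant MEF were compared with each other without the WT cultures. Of the 36 Hox genes tested, 22 were higher and 10 lower in sgPrrx1 MEF. The share of all genes called without a limit on fold was not computed for this comparison. At least 2-fold, 17 were higher, against 10.6% of all genes tested, and 10 were lower, against 10.6%. The 10 lower genes included Hoxa4 and the 8 posterior A and D genes that rose in the mutant. These 8 were named by their rise in the same mutant cultures. Genes near 0 in either group passed the filter on low counts through the other group and had to differ. The counts thus describe the genes and support nothing further. Hoxa11 was at 0 in all sgPrrx1 MEF cultures and at least 798-fold lower than in the mutant, and Hoxd11 at least 332-fold lower. In the other direction Hoxc5 was higher by 4.18 on the log2 scale (SE 0.12, edgeR adjusted p = 2.4e-06), with 10.5, 11.7 and 11.8 CPM in sgPrrx1 MEF, and Hoxb9 by 3.94 (SE 0.12, adjusted p = 2.52e-06).

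In wound-healing fibroblasts more Hox genes rose than fell with sgPrrx1, and of the 11 that rose at least 2-fold 9 were in clusters A and D. Of the 35 genes tested 18 rose, 11 fell and 6 did not pass the test, so that 29 were called, against 77.6% of all genes. At least 2-fold, 11 were higher, against 8.57% of all genes, and 0 were lower, against 7.06%. DESeq2 likewise gave 0, and of the 11 that were lower by edgeR without a limit on fold, Hoxa2 had the furthest change at -0.54. Hoxd11, Hoxd13, Hoxb13 and Hoxd10 had 12, 2, 21 and 26 counts in the 3 WT cultures together. They passed the filter on low counts through their sgPrrx1 values and could be called only higher. The 2-fold counts thus describe the genes and support nothing further. The median log2 change was 0.23. Cluster D had 6 higher and 1 lower of 7 tested, and cluster A 7 higher and 2 lower. With 77.6% of all genes called in either direction, these counts by cluster are descriptive only.

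Of the posterior A and D genes that rose, Hoxa9 and Hoxd9 changed by less than 2-fold (0.52 and 0.50 on the log2 scale) and reached 37.9 ± 0.87 and 8.67 ± 0.69 CPM. The other 4 rose by more and stayed at or below 6.40 CPM. Hoxa11 was at 6.40, 5.88 and 6.16 CPM in sgPrrx1 against 0.263, 0.297 and 0.255 in WT, without overlap (log2 change 4.49, SE 0.12, edgeR adjusted p = 5.28e-09). Hoxd11 was at 1.5, 1.43 and 1.58 CPM against 0.0438, 0.0618 and 0.0347 (4.97, SE 0.28). Hoxd10 was at 1.12, 1.38 and 1.13 CPM against 0.0876, 0.0989 and 0.116 (3.57, SE 0.26). Each of these sgPrrx1 values was several times above the highest WT culture, and each was below the lowest mutant MEF culture. No p-value is given for Hoxd11 and Hoxd10, which could be called only higher. Hoxd13 had 117 counts in sgPrrx1 and 2 in WT over 3 cultures each, a ratio of 58.7 (95% exact counting interval 15.9 to 490). Hoxd12 was at 0 in all 6 cultures, and Hoxa13 did not pass the test at 0.190, 0.236 and 0.133 against 0.285, 0.260 and 0.174 CPM (-0.35, SE 0.35, adjusted p = 0.388). The 6 distal genes held 2.31 ± 0.059% of the Hox sum in sgPrrx1 and 0.155 ± 0.016% in WT.

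Anterior and central genes rose as well. Hoxd4, of the hindbrain and neck, was at 7.20, 6.15 and 6.43 CPM against 2.07, 2.27 and 2.08 (1.62, SE 0.09, edgeR adjusted p = 5e-07). Its neighbour Hoxd3 was at 2.10, 2.33 and 1.84 CPM against 0.646, 0.914 and 0.834 (1.39, SE 0.18, adjusted p = 0.000104). Hoxa5, needed for lung development, was at 12.2, 11 and 11.6 CPM against 5.96, 5.38 and 5.72 (1.02, SE 0.06, adjusted p = 6.98e-07). None of these groups overlapped. Hoxa6 (1.25) and, at under 1 CPM, Hoxb13 (2.93) and Hoxc12 (1.23) were also in the 2-fold set, the last being lost without replicate 1 (adjusted p = 0.122) or replicate 2 (0.0633). Hoxc13, a gene of hair and nails, came just under it at 9.12, 9 and 8.57 CPM against 4.40, 4.82 and 4.34 (0.97, SE 0.07, adjusted p = 1.48e-06). The genes highest in WT wound-healing fibroblasts fell by less than 2-fold. Hoxb9 went from 93.1, 89 and 92.3 to 65.2, 64 and 62 CPM (-0.53, SE 0.03, adjusted p = 2.56e-07) and Hoxc10 from 51.8, 52.4 and 49.9 to 38.3, 38.5 and 37.9 CPM (-0.43, SE 0.03, adjusted p = 1.07e-06). The calls of Hoxa2 (without replicate 3, 0.0781), Hoxc5 (without replicate 2, 0.0576) and Hoxc6 (without replicate 1 or 3, 0.0615 and 0.145) were lost, and Hoxb3 was gained without replicate 2 (-0.31, adjusted p = 0.00595). The endothelial marker Kdr differed between the same groups (290 and 142 CPM), and its part in these results was not tested.

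**Figure D5:**
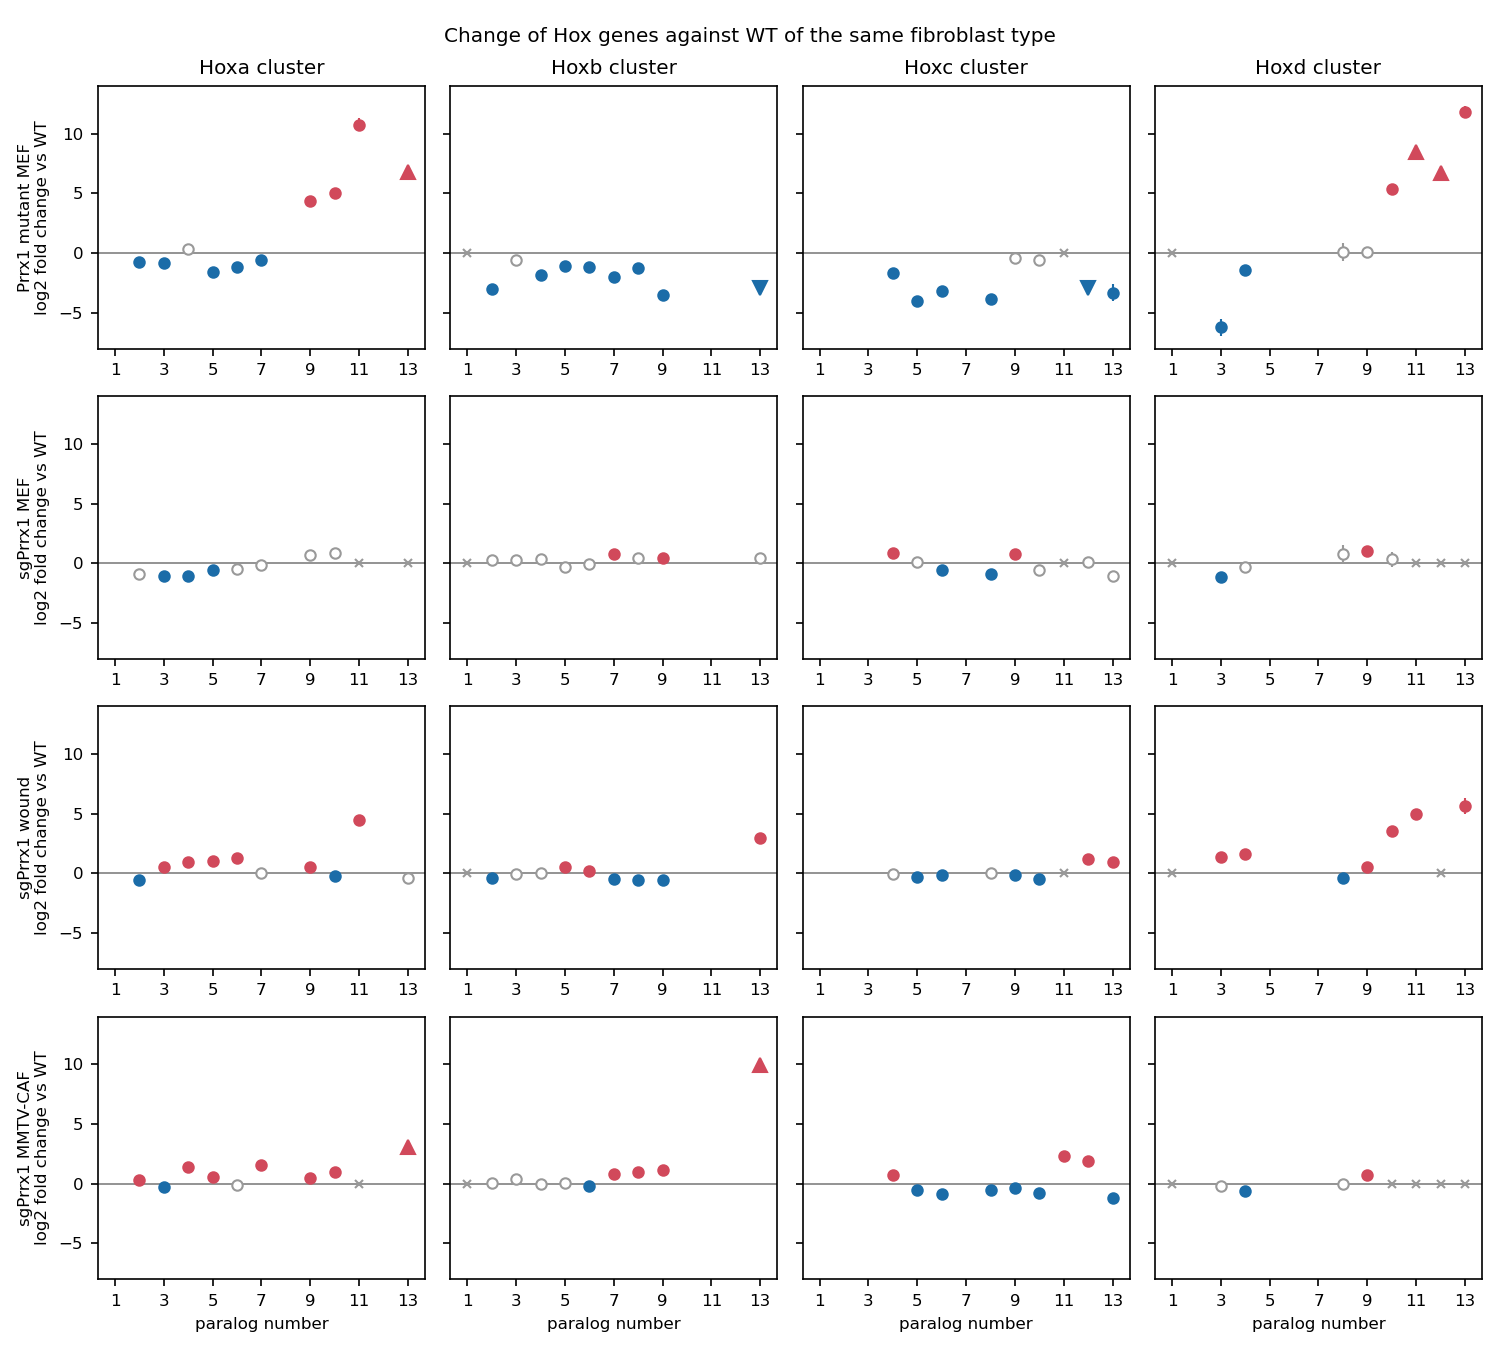
Log2 fold change of each Hox gene reported here in the 4 comparisons with WT of the same type, by paralog number and cluster, with bars for the standard error. Red points are called higher and blue points lower at an adjusted p under 0.05, open grey points are not called, crosses were not tested or near 0 in both groups, and triangles mark a bound where a group is at 0 in all cultures. Hoxd3 in mutant MEF and Hoxd13 in wound-healing fibroblasts are drawn at fitted values that rest on 2 counts in 1 group. The mutant MEF panels have 8 red and 21 blue genes, counting bounds.

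In MMTV-CAF, as in wound-healing fibroblasts, more Hox genes rose than fell with sgPrrx1. Of the 32 tested 16 rose, 9 fell and 7 did not pass the test, so that 25 were called, against 83.1% of all genes. At least 2-fold, 8 were higher, against 11.5% of all genes, and Hoxc13 was lower, against 12.8%. Hoxb13 and Hoxa13 were at 0 in every WT culture. They passed the filter on low counts through their sgPrrx1 values and could be called only higher. The 2-fold counts thus describe the genes and support nothing further. The median log2 change was 0.33. By cluster, 8 of 10 Hoxa genes and 4 of 9 Hoxb genes rose, while 6 of 9 Hoxc genes fell. With 83.1% of all genes called in either direction, these counts by cluster are descriptive only. Cluster C went from 60.7 ± 0.83 to 35.6 ± 0.40% of the Hox sum and cluster B from 19.2 ± 0.60 to 33.9 ± 0.24%.

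Hoxb13, a gene of the prostate and tail bud, was at 25.2, 23.9 and 26.3 CPM in sgPrrx1 MMTV-CAF and at 0 in all 3 WT cultures, which is at least 981-fold higher. Outside this group no culture exceeded 0.671 CPM of it. Hoxa13 was at 0.195, 0.229 and 0.223 CPM against 0 in WT, at least 8.43-fold higher. Hoxc11 was at 1.52, 1.63 and 1.86 CPM against 0.364, 0.331 and 0.287 (log2 change 2.33, SE 0.17, edgeR adjusted p = 4.04e-06), and Hoxc12 at 3.44, 3.70 and 3.84 against 1.04, 1.11 and 0.702 (1.93, SE 0.17, adjusted p = 1.25e-05). These neighbours rose while Hoxc13 next to them fell, from 26.4, 28.7 and 27.6 to 12.5, 12.3 and 12.4 CPM (-1.17, SE 0.04, adjusted p = 3.42e-08).

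Hoxa7 rose from 7.32, 6.65 and 6.97 to 21.6, 19.5 and 21.4 CPM (1.56, SE 0.06, adjusted p = 5.01e-08), and Hoxa4 by 1.39 (SE 0.10, adjusted p = 3.71e-06). Hoxb9 rose from 28.7, 29.2 and 29.6 to 65.1, 64.7 and 62.8 CPM (1.12, SE 0.02, adjusted p = 4.01e-09). Hoxa10 was at 62.3, 58.6 and 58.9 CPM against 29.6, 29.6 and 29.4 (1.003, SE 0.03, adjusted p = 2.12e-08). In all of these every sgPrrx1 culture was above every WT culture. Hoxc10, the highest Hox gene of WT MMTV-CAF per kilobase, fell from 90.8, 91 and 90 to 57.4, 52.5 and 49.5 CPM (-0.79, SE 0.05, adjusted p = 2.03e-06), and Hoxc6 fell by 0.87 on the log2 scale (SE 0.03, adjusted p = 3.55e-08). Hoxa11 and Hoxd13 had 0 counts in all 6 cultures, and Hoxd10, Hoxd11 and Hoxd12 stayed below 0.1 CPM. The calls of Hoxa2 (lost without replicate 1, 2 or 3, adjusted p from 0.0904 to 0.135), Hoxb6 (without replicate 1 or 2, 0.0903 and 0.131) and Hoxd4 (without replicate 1 or 3, 0.244 and 0.108) depended on the replicates included, and Hoxb3 was gained without replicate 1 (0.32, adjusted p = 0.00665).

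The change with sgPrrx1 differed between fibroblast types for 28 of the 36 Hox genes in the interaction test over 18 cultures, against 80.1% of all genes tested. In 13 genes the change was called in opposite directions in at least 2 types, and so it was in 40.8% of all genes tested. Both shares of the Hox genes (77.8 and 36.1%) were thus near those of all genes. Hoxb9, the highest Hox gene of WT wound-healing fibroblasts per kilobase, rose in MEF (0.42) and in MMTV-CAF (1.12) and fell in wound-healing fibroblasts (-0.53), and the difference between the adult types was 1.70 (edgeR adjusted p = 6.96e-14). Hoxa4 fell in MEF (-1.09) and rose in both adult types (0.92 and 1.39). Hoxd4 rose in wound-healing fibroblasts (1.62) and fell in MMTV-CAF (-0.60), a difference of -2.16 (adjusted p = 6.47e-06), although the fall in MMTV-CAF was lost without replicate 1 (adjusted p = 0.244).

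Genes that act with Hox proteins or on their clusters were measured in the same comparisons, from lists of cofactors, Polycomb and trithorax proteins, and neighbours. Of all genes, 59.9, 43.1, 77.6 and 83.1% were called in mutant MEF, sgPrrx1 MEF, wound-healing fibroblasts and MMTV-CAF, and the shares of each list are given in this order. Of the 9 cofactors of the Pbx, Meis and Pknox families, 6 fell and 1 rose in mutant MEF, 4 fell and 1 rose in sgPrrx1 MEF, 2 fell and 6 rose in wound-healing fibroblasts, and 4 fell and 4 rose in MMTV-CAF (77.8, 55.6, 88.9 and 88.9% called). Their median log2 changes were -0.95, -0.54, 0.30 and 0.03, against values within 0.01 of 0 over all genes. Meis1, a partner that binds DNA together with Hox proteins, fell in all 4 comparisons. It went from 66.8 ± 4.74 CPM in WT MEF to 7.34 ± 0.32 in the mutant (-3.21, SE 0.10, edgeR adjusted p = 1.8e-06) and 34.3 ± 1.77 in sgPrrx1 MEF (-0.97, SE 0.08, adjusted p = 0.000186). In wound-healing fibroblasts it went from 18 ± 0.41 to 7.33 ± 0.52 CPM (-1.30, SE 0.06, adjusted p = 8.24e-08) and in MMTV-CAF from 7.90 ± 0.16 to 5.40 ± 0.27 (-0.57, SE 0.05, adjusted p = 2.11e-05).

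Of the 23 Polycomb genes, whose products keep silent Hox genes repressed, 5 fell and 9 rose in mutant MEF, 5 and 8 in sgPrrx1 MEF, 10 and 8 in wound-healing fibroblasts, and 6 and 10 in MMTV-CAF. The shares called were 60.9, 56.5, 78.3 and 69.6%. Eed, Rnf2 and Pcgf6 rose in all 4, with log2 changes between 0.17 and 1.10. Of the 11 trithorax and H3K27 demethylase genes, which act against Polycomb, 1 fell and 2 rose in mutant MEF, 2 and 2 in sgPrrx1 MEF, 3 and 6 in wound-healing fibroblasts, and 5 and 4 in MMTV-CAF (27.3, 36.4, 81.8 and 81.8% called). The medians of the Polycomb and trithorax lists were between -0.04 and 0.18 on the log2 scale, near those of all genes.

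Of the genes beside the clusters 9 of 16 tested rose and 1 fell in mutant MEF, 8 of 15 rose and 2 fell in sgPrrx1 MEF, 3 of 15 rose and 9 fell in wound-healing fibroblasts, and 14 of 17 rose and 3 fell in MMTV-CAF (62.5, 66.7, 80 and 100% called). Cbx5, beside the Hoxc cluster, rose in all 4, by 0.06 to 0.73 on the log2 scale. The medians of the list were 0.67, 0.41, -0.30 and 0.57. Non-coding genes inside the clusters were mostly too low to test, with 1 higher and 2 lower of 4 tested in mutant MEF, 0 and 1 of 3 in sgPrrx1 MEF, 4 and 0 of 9 in wound-healing fibroblasts, and 5 and 0 of 6 in MMTV-CAF (75, 33.3, 44.4 and 83.3% called). Their medians were -0.42, -0.31, 0.58 and 1.54, in the same order of comparisons.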

How the data were processed

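The authors deposited raw counts per gene, one table for each fibroblast type, made per the labels and the methods by trimming (Trimmomatic), alignment to mm10 (STAR) and counting (HTSeq). The deposited values are whole-number counts with no normalization. A batch correction (ComBat-seq) is named in the methods for human samples, but not for the mouse tables. The columns of all 21 cultures entered the analysis. The columns of wound-healing fibroblasts do not name the cell type and were assigned by elimination. The library kit does not keep the strand.

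CPM were computed with TMM factors over all 21 cultures, and RPKM with exon lengths of the Gencode M1 annotation, which is of an older build than mm10. Each comparison was fitted in R 4.3.3 with edgeR 4.0.16 (filterByExpr, TMM, glmQLFit, glmQLFTest) on all genes of its cultures, and p-values were adjusted by Benjamini-Hochberg over all genes tested. Genes were called at an adjusted p under 0.05, and counted again at 2-fold or more. Groups at 0 were given a floor of 3 counts per culture, and intervals and floors cover counting error only. The standard error is the fitted log2 change over the square root of F. Depth of 69588655 to 134790440 counts puts 1 count at about a hundredth of a CPM. No replicate pair was alike within sampling noise. Alternatives were DESeq2 1.42.0, RLE scaling, no filter, a replicate block, leaving out each replicate number, all 9 MEF cultures in one model and other detection limits. The tests were run first on simulated counts. Promoters and gene spans came from RefSeq (GRCm38.p6), and scripts used Python 3.11.15, pandas 2.3.3 and matplotlib 3.10.9. The members and gene lists were chosen with earlier results of these data known. A single Hox gene enters the counts and sums and is not reported here. Every other Hox gene could be named, and of the other lists the genes called in one direction in all 4 comparisons with WT. Genes outside this rule are said to be chosen after their values were seen.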

Additional observations from a re-analysis of the deposited data

Results flagged for a closer look

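Of the 36 Hox genes tested over the 18 WT and sgPrrx1 cultures, 28 had a change with sgPrrx1 that differed between fibroblast types by the edgeR interaction test (80.1% of all genes tested did). For 13 of them the change was called in opposite directions in a pair of types, which is 36.1%, against 40.8% of all genes. The values below are differences of log2 changes from the same test, each past an adjusted p of 0.05.

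Between wound-healing fibroblasts and MEF, the change in wound-healing fibroblasts minus that in MEF was 1.53 for Hoxa3, 1.97 for Hoxa4, 1.58 for Hoxa5 and 2.51 for Hoxd3, which fell in MEF and rose in wound-healing fibroblasts. It was -1.215 for Hoxb7, -0.98 for Hoxb9 and -0.99 for Hoxc9, which rose in MEF and fell in wound-healing fibroblasts. The MEF calls of all of these but Hoxa3 were lost without replicate 2.

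Between MMTV-CAF and MEF, the change in MMTV-CAF minus that in MEF was 2.498 for Hoxa4 and 1.14 for Hoxa5, which rose in MMTV-CAF, and -1.14 for Hoxc9, which fell there.

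Between the adult types, the change in MMTV-CAF minus that in wound-healing fibroblasts was 0.895 for Hoxa2, 1.31 for Hoxa10, 1.31 for Hoxb7, 1.55 for Hoxb8 and 1.70 for Hoxb9, which rose in MMTV-CAF and fell in wound-healing fibroblasts. It was -0.75 for Hoxa3, -0.36 for Hoxb6, -2.09 for Hoxc13 and -2.16 for Hoxd4, which fell in MMTV-CAF and rose in wound-healing fibroblasts. The CAF calls of Hoxa2, Hoxb6 and Hoxd4 were lost without single replicates. Strain, site of origin, sex and the level of Prrx1 transcript left after editing differ between the types and cannot be told apart from type.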

How the results depend on the processing

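No Hox result changed direction past the threshold under any alternative, and under RLE scaling, DESeq2, no filter and all 9 MEF cultures the counts of called Hox genes stayed within 1.5 times those reported. Leaving out 1 replicate number gave 26 to 32 called genes in mutant MEF, 2 to 12 in sgPrrx1 MEF, 27 to 28 in wound-healing fibroblasts, 23 in MMTV-CAF, 25 to 30 between sgPrrx1 and mutant MEF and 24 to 30 in the interaction test. In sgPrrx1 MEF it gave 1 to 3 genes lower and 0 to 2 higher at least 2-fold, the lowest without replicate 2. Between WT wound-healing fibroblasts and WT MEF 5 Hox genes were lower at least 2-fold, 3 to 4 with a replicate number left out, and 3 with the replicate block. Same-numbered cultures did not deviate together in every pair (correlations from -0.176 to 0.13 over 15093 genes), and not every sample correlated best with its own number, so the numbers serve as names. The replicate block gave 28, 16, 29 and 24 called genes in mutant MEF, sgPrrx1 MEF, wound-healing fibroblasts and MMTV-CAF. The cause of these differences was not tested. Depth limits the genes near 0, where fitted folds rest on few counts.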

Other observations

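Genes outside the Hox family but inside or beside the clusters were chosen after their values were seen. Evx2, a homeobox gene next to Hoxd13, had 152 to 344 counts in the 3 mutant MEF cultures (3.39 ± 1.11 CPM, SD, n = 3) and 0 counts in all other 18 cultures. Hoxa11os, transcribed from the strand opposite Hoxa11, was at 13.2 ± 3.89 CPM in mutant MEF and 0.019 ± 0.033 in WT MEF, and at 3.34 ± 0.24 in sgPrrx1 and 0.121 ± 0.037 in WT wound-healing fibroblasts. These counts cannot be told apart from those of Hoxa11 without strand.

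Ttll6, which encodes a tubulin polyglutamylase and lies beside Hoxb13, had 544 to 662 counts in sgPrrx1 MMTV-CAF and 7 to 22 in WT MMTV-CAF. The fitted log2 change was 5.53 (SE 0.30). Ttll6 had at most 14 counts in any MEF or wound-healing culture. Hotairm1, a non-coding RNA of the Hoxa cluster, was at 3.402 ± 0.15 CPM in sgPrrx1 and 0.475 ± 0.12 in WT MMTV-CAF (log2 change 2.82, SE 0.17). In the wound-healing groups it was at 1.95 ± 0.14 and 1.37 ± 0.068. No p-value is given for Ttll6 and Hotairm1, since they were chosen after their values were seen.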
